A study of Mus musculus with 106 samples.

Results

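Wild type mouse liver gained 60868 regions of accessible chromatin with T09 over vehicle 4 h after dosing, and the first entries by the authors' q lay at Lpin1 (a phosphatidate phosphatase) and Upp2 (a uridine phosphorylase). These regions are every entry of 1 authors' list, in which ATAC-seq of 2 liver samples given T0901317 (T09) was set against that of 2 samples given the vehicle of that experiment. ATAC-seq cuts open DNA with a transposase, so that read density marks accessible chromatin. The T09 list made up 22.8% of the 266795 entries of the ATAC lists and 13.8% of the 440562 entries of all 27 lists of the series, whose other assays are chromatin immunoprecipitation and RNA sequencing in wild type and Foxa2 mutant liver. All 4 samples were of WT mice of 8 to 12 weeks, with the ligand given by oral gavage per the labels (the series text speaks of injection), and nuclei came from frozen whole liver, a mixture of cell types. Strain, sex and dose of these mice are not given in the sources used here. Other ligand lists used for comparison came from WT livers of the same age given GW3965 (an LXR agonist, 2 against 2 with a vehicle group of its own) or GW4064 (an FXR agonist, 3 against 3), and binding lists came from 1 Foxa2 library and 1 LXR library of WT liver per treatment, the LXR mice being C57BL/6 of 3 months. The list holds no value per animal, so no spread over animals and no test between groups could be given for any result here, and sequencing depth is unknown. Only gains were listed, so a gene with no region may have been unaltered, lowered or below the authors' threshold.

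The liver X receptors (LXR) are nuclear receptors that bind oxidised cholesterol derivatives, pair with the retinoid X receptor RXR and turn on genes of cholesterol efflux and fatty acid synthesis, such as Abca1, Srebf1 and Scd1. T09 is a synthetic agonist of both LXR forms and is also known to act on the xenobiotic receptor PXR. Open chromatin at promoters and enhancers is known to give narrow peaks, and the bodies of heavily transcribed genes can also be accessible over longer stretches.

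The start sites of 6 genes are given as examples of gains with and without the promoter. Their RefSeq promoter windows (GRCm38.p6, 250 bases before to 50 after the start) are printed. All 6 were picked from genes with 20.6 kb or more of their bodies inside gained regions. They do not give the usual share: of 77 genes with 10 kb or more covered, 22 (28.6%) had a start site in a gained region. At Lpin1 (phosphatidate phosphatase, chr12:16610917-16611216, minus strand) and Egfr (the epidermal growth factor receptor, chr11:16751953-16752252, plus strand), 0 of the 300 bases lay in a gained region. Capitals mark the nuclear receptor hexamer AGGTCA, read on either strand.

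Lpin1: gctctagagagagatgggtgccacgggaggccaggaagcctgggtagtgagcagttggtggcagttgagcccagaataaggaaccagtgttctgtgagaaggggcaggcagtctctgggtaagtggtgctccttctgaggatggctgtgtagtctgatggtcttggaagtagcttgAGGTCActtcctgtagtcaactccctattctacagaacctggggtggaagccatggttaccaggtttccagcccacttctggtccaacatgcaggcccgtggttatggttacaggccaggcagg
Egfr: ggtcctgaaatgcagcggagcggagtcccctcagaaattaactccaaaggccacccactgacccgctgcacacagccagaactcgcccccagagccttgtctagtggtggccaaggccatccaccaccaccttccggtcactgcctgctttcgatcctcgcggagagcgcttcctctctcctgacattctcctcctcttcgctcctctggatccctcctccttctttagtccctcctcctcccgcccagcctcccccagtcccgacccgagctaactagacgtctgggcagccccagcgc

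At the other 4, all 300 bases lay inside a gained region: Got1 (cytosolic aspartate aminotransferase, chr19:43524556-43524855, minus strand), Ass1 (argininosuccinate synthase of the urea cycle, chr2:31470020-31470319, plus strand), Onecut1 (the hepatocyte factor HNF6, chr9:74861671-74861970, plus strand) and Igf1 (insulin-like growth factor, chr10:87860861-87861160, plus strand).

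Got1: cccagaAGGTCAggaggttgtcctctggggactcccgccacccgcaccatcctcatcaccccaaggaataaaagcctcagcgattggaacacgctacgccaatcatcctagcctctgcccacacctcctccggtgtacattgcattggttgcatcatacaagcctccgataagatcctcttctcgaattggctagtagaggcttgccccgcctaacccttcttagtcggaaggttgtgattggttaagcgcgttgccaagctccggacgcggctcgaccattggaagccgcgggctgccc
Ass1: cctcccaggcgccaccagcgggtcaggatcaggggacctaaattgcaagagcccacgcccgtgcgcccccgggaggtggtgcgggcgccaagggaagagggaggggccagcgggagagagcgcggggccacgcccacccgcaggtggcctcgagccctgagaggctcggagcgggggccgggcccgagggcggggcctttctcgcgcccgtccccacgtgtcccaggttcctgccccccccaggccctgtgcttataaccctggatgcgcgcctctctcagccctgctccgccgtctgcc
Onecut1: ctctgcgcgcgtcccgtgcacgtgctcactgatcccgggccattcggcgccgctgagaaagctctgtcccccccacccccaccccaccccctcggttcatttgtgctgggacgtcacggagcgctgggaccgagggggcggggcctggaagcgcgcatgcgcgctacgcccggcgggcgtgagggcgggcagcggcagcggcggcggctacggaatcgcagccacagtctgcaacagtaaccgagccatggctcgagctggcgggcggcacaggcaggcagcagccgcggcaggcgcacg
Igf1: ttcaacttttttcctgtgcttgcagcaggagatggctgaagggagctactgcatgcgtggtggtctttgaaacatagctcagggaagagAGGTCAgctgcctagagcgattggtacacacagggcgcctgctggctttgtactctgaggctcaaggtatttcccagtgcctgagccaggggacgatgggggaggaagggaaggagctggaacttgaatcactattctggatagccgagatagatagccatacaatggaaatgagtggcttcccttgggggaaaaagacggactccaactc

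The hexamer began 74 bases before the start at Lpin1 (position -74), at -244 at Got1 and at -161 at Igf1, and it was not in the windows of Egfr, Ass1 and Onecut1. Over all 21263 promoter windows of protein-coding genes, 14.7% held it on either strand. Of the 608 windows whose start site lay in a T09 region, 16.4% held it, so these shares were close. GGGCGG, the GC box, was in 58.9% of those 608 windows and in 46.2% of all windows, and TATAAA was in 7.07% and 12.6%. Their median GC content was 59.7% against 56.3% over all windows. A match is a description of letters and not of binding.

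The regions ranged from 1 bp to 46658 bp, with a median width of 113 bp and quartiles of 44 and 215 bp. Regions of 20 bp or less numbered 9546 (15.7%). Those of 1 kb or more numbered 2468 (4.05%) and held 38.5% of the 14.7 Mb covered in all, and 151 regions were wider than 5 kb. The authors' fold, read density with T09 over vehicle, fell as width rose. Its median was 10.1 in regions of 20 bp or less, 3.74 at 101 to 200 bp, 1.73 at 501 to 1000 bp and 1.28 above 5 kb. The authors' statistical support ran the other way, with a median -log10 p of 2.5 in the narrowest class and 10.9 in the widest. The median fold over all regions was 3.98, the lowest 1.045 and the highest 2618. The largest deposited q was 0.05. A q of 0.01 or less was listed for 11067 regions, and 651 had 1e-05 or less with a median width of 1700 bp. High folds were thus listed mainly for short intervals and low folds for long ones.

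**Figure D1:**
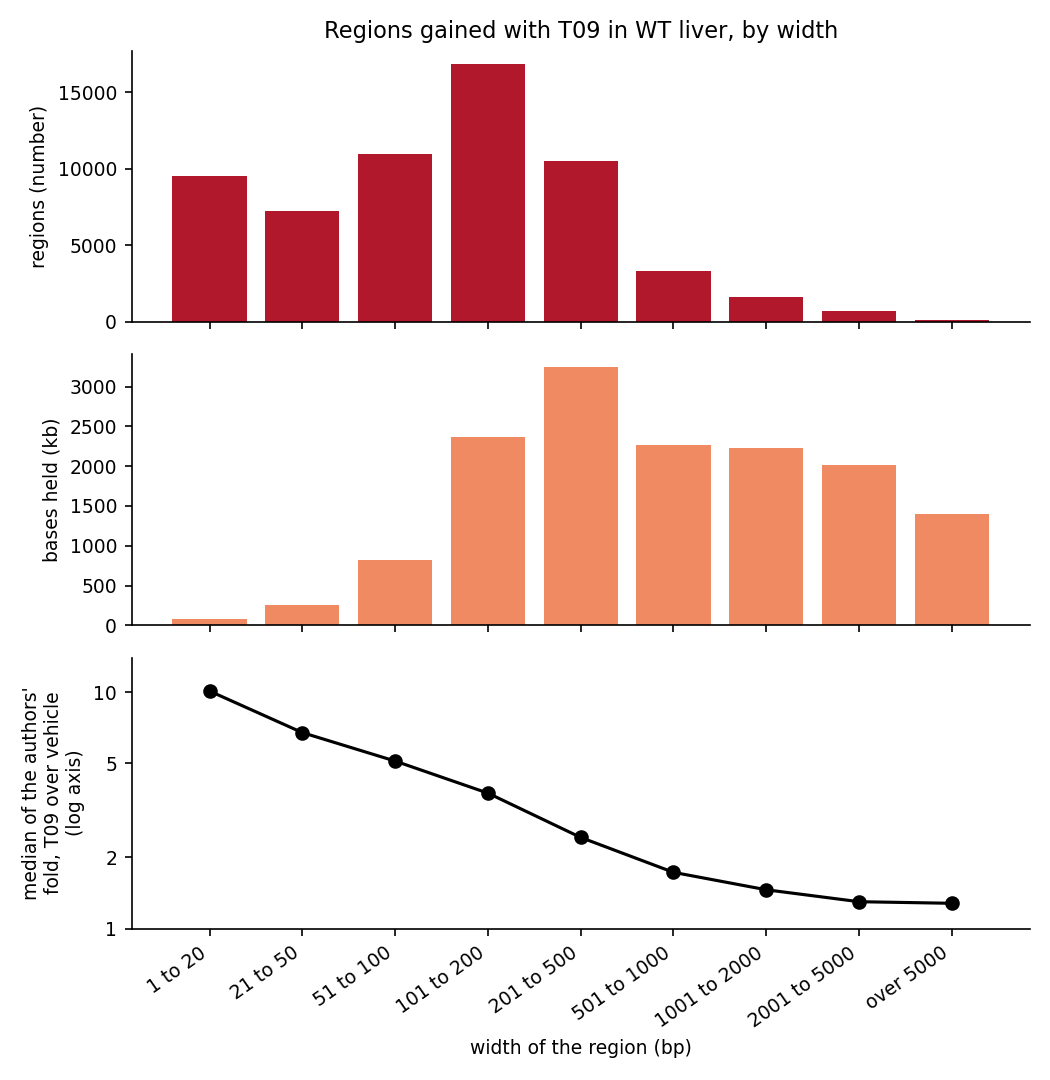
Number of T09 regions, the kilobases they hold and the median of the authors' fold (log axis), in 9 classes of region width in bp. Most regions were 200 bp or narrower, with median folds of 3.74 or more, whereas the 151 regions above 5 kb had a median fold of 1.28 and held 1403 kb.

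Wide and narrow regions differed in where they lay. Of the regions of 1 kb or more, 76.4% overlapped a protein-coding gene body and 10.2% lay more than 10 kb from any such gene. Among narrower regions these shares were 51.5% and 37.6%. A RefSeq start site lay in 12.2% of the wide regions and 0.325% of the narrower ones, and a wider interval has more room for a start site. Gene bodies held 72.1% of the bases of the wide regions and 55.6% of those of the narrower ones. Chromosome 19 had the highest share of its gene body bases in gained regions (1.55%) and chromosomes X and Y the lowest (0.284% and 0.275%), where the other chromosomes ranged from 0.709% to 1.09%.

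The authors' first 10 entries by q included regions at Lpin1, Upp2, Egfr, Got1, the pseudogene Serpina4-ps1, Lpin2 and Ass1. Lpin1 and Lpin2 make diacylglycerol for triglyceride synthesis and also act in the nucleus as coactivators of fatty acid oxidation. The first entry was 36 kb wide, with 31.2 kb in the 3′ part of Lpin1 and 4.85 kb past its 3′ end (chr12:16530820-16566840), at a fold of 2.64 and a -log10 p of 712. The second was 23.3 kb wide, with 21.3 kb in Upp2 (chr2:58774570-58797877), at 2.05. Egfr took entry 5, 12.5 kb at 3.03, and the interval shared by Got1 and its neighbour Cnnm1 entry 6, 10.2 kb at 3.82. Entry 9 ran over the end of Lpin2 and into Emilin2 (17.1 kb at 2.11). Entry 10, at Ass1, was the widest of the list with 46.7 kb (chr2:31478552-31525209) at a fold of only 1.37. Each fold and q here is from the authors' deposited list.

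Among the 10 widest regions were also Fmo5 and Prkab2 (22 kb, fold 1.26), Mat1a (methionine adenosyltransferase, 21.4 kb, 1.11), Mfsd2a (a lipid transporter, 21 kb, 1.09), Ttc39c (20.1 kb at 1.26 and 19.3 kb at 1.29) and Aldh1l1 with Slc41a3 (19.6 kb, 1.10). The q of the Mfsd2a region was 0.00518, and it stood at entry 5699. Several of the widest intervals thus had folds of 1.09 to 1.11. Regions of 1 kb or more with the highest fold in the authors' deposited list were shorter. They lay at Cyp2c70 (4 regions in or beside the gene, 4.23 to 5.14), a bile acid hydroxylase of mouse liver, at Egfr (4.60) and Got1 (4.34), beside Ces3b (4.40), and at 3 places outside protein-coding genes, of which chr9:74516062-74517510 had the highest fold (6.06) and lay 232858 bp from the nearest such gene.

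A small part of the regions lay in long stretches. Joining regions no more than 2 kb apart gave 52470 stretches, 46868 of them a single region, and 85 stretches held 10 kb or more of gained sequence. Those 85 held 800 regions and 14% of all covered bases, and 82 of them touched a protein-coding gene. Egfr had a pair of such stretches, one with 81.2 kb covered in 31 regions and one with 61.5 kb in 36. Others were at Scp2 with 70.8 kb in 18, Lpin1 with 63.8 kb in 9 and Ass1 with 58.5 kb in 7. A stretch with 40 kb covered in 26 regions (chr6:31062279-31120625) held no protein-coding gene, and RefSeq places the long noncoding RNA Lncpint and the microRNA genes Mir29a and Mir29b-1 there.

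**Figure D2:**
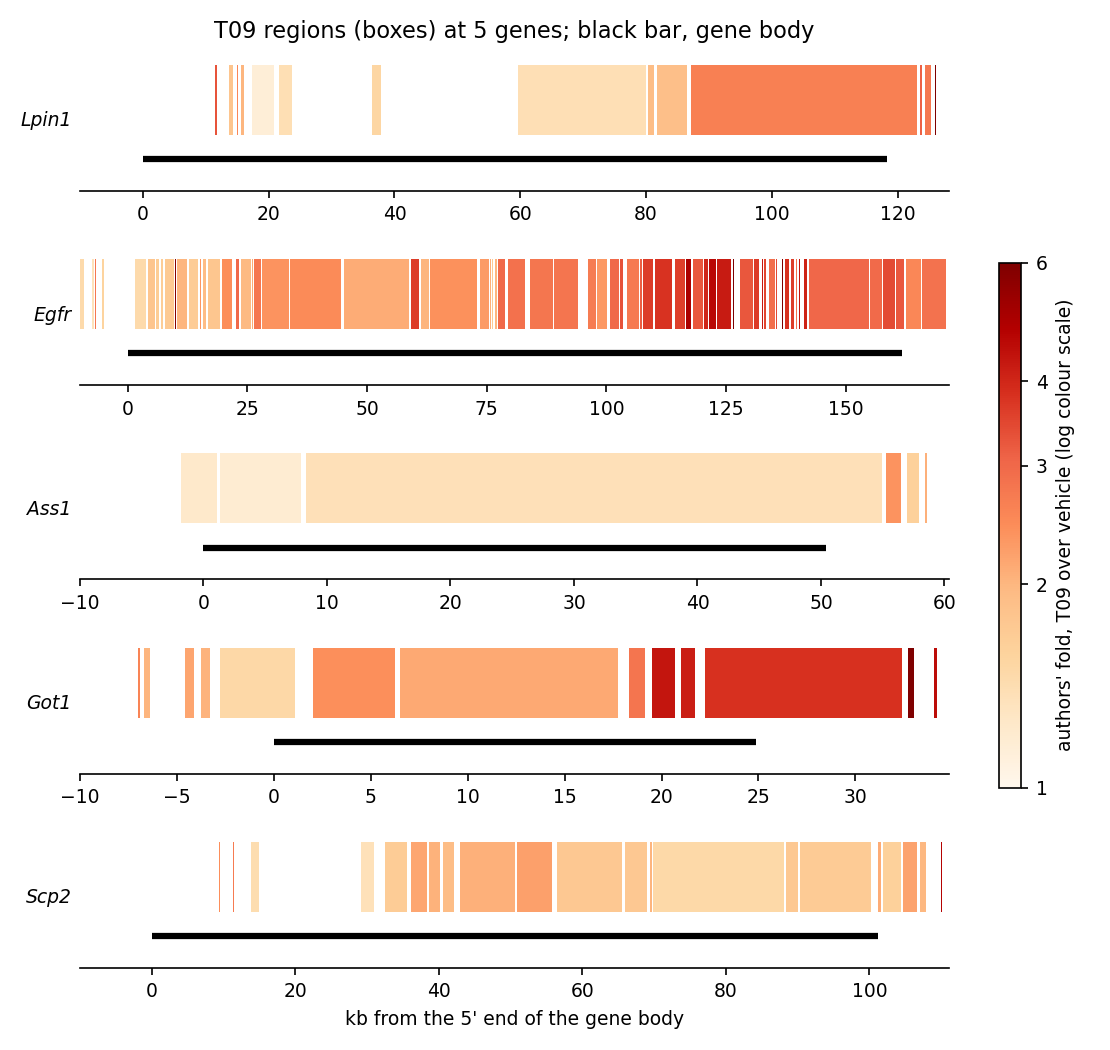
T09 regions (boxes, coloured by the authors' fold on a log colour scale) along 5 genes and 10 kb on either side, in kb from the 5′ end of the gene body (black bar). Lpin1 and Scp2 were filled towards the 3′ end, Egfr and Got1 along nearly the whole body and past it, and Ass1 by 1 long region of low fold.

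T09 regions touched 9454 of 21887 protein-coding genes (43.2%), but for most of these with a short interval only. The median share of the body covered was 0.698% among the genes reached. Reach rose with gene length, from 12.1% of genes of 5670 bp or less to 75.3% of those of 44341 bp or more. A gene is called covered below where 25% or more of its body lay in gained regions, which held for 337 genes (1.54%). Of these, 149 had 50% or more covered and 50 had 90% or more. Short genes made up much of that set, with 153 of the 337 at 5670 bp or less and 20 at 44341 bp or more, and 141 were touched by 1 region only. In gene-dense places one region covered several genes, and 79 of the 337 shared a region with another covered gene. At least 10 kb of the body was covered in 99 genes (0.452%), a measure chosen after values were seen that favours long genes, and 48 genes met both limits.

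Egfr had the most bases covered, 134.0 kb of 162 kb (82.9%) in 64 regions. By bases, Ttc39c (78.6 kb), Rapgef4 (72.9 kb) and Dpyd (68.9 kb) came next, at 50.3%, 26.4% and 7.92% of their long bodies. Scp2 (sterol carrier protein and peroxisomal thiolase) had 66.5 kb covered, Lpin1 66.1 kb, Ass1 49.8 kb, Hgd (homogentisate dioxygenase) 37.7 kb and Aass (the first enzyme of lysine breakdown) 36.7 kb. In Egfr and in each of these last 5 genes the covered bases made up 55.9% or more of the body. The average fold over the covered bases differed between covered genes. It was 3.96 at Cyp2c70, 2.74 at Egfr, 2.58 at Onecut1, 2.57 at Got1 and 2.03 at Lpin1. It was 1.34 at Ass1, 1.41 at C3, 1.13 at Hpd and 1.11 at Mat1a. Over the 99 genes with 10 kb or more covered it ranged from 1.09 to 4.00 with a median of 1.65, and it was 2 or more in 25 of them and under 1.2 in 10.

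Coverage rose along the gene towards its 3′ end. RefSeq promoter windows gave a strand for 77 of the 99 genes. Over these, the body was cut into 10 equal parts. On average 22.3% of the first part lay in gained regions, 37.9% of the fifth and 53.3% of the last, and the first 2 kb past the 3′ end still had 50.7%. From 8 to 10 kb downstream it was 24.0%, against 5.49% from 8 to 10 kb upstream. The 5′ end of the body lay in a region of 1 kb or more in 17 of 76 such genes (22.4%) and the 3′ end in 34 (44.7%). The median distance to the nearest wide region inside the body was 15.7 kb from the 5′ end and 0.683 kb from the 3′ end. At Upp2 the first wide region began 171 kb from the 5′ end of the gene body, at Rapgef4 167 kb, at Lpin1 17.4 kb and at Lpin2 16.6 kb. These ends are the outermost ones of the RefSeq gene and can lie apart from a start site. At Lpin1 the body began at chr12:16653903, and the window printed above had its start site at 16610966. A start site lay in a gained region in 22 of 77 genes with 10 kb or more covered (28.6%), in 143 of 272 covered genes (52.6%) and in 526 of all 17492 genes with a window (3.01%). The 7313 other reached genes of 2 kb or more had 4.08% in the first part, 2.83% in the fifth and 4.43% in the last, so their share was also higher at the 3′ end than in the middle. In the GW3965 list the same 77 genes had 14.2% in the first part and 20.8% in the last. These genes were chosen by their T09 coverage, which favours a higher share with T09. Genes chosen by GW3965 coverage were not profiled.

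**Figure D3:**
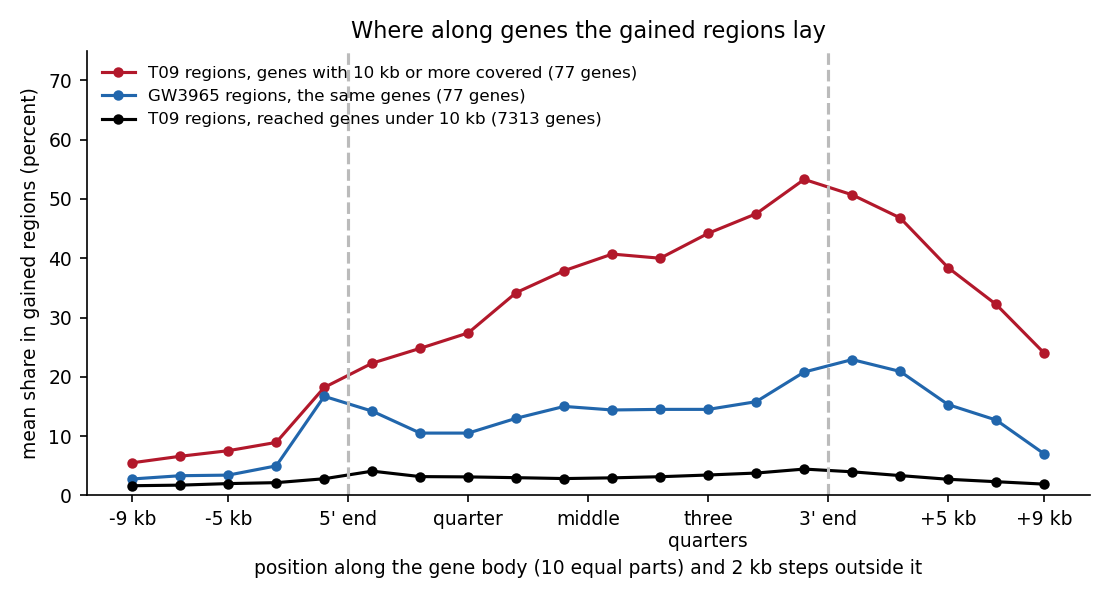
Mean share of each of 10 equal parts of the gene body, and of 2 kb steps outside it, inside gained regions (percent; dashed lines, gene ends). For T09 in the 77 genes with 10 kb or more covered, the share rose from 22.3% to 53.3% between the ends. In the same genes, which were chosen by T09 coverage, the GW3965 share went from 14.2% to 20.8%.

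Of 451 genes on 21 lists of liver function, 43 (9.53%) were covered and 59.0% reached, beside 1.54% and 43.2% of all genes. Covered list members were not particular to T09, as most of the 21 lists had as many or more with GW3965, which covered 2.26% of all genes. Fewer were covered with GW3965 in gluconeogenesis (2 against 6 with T09), fatty acid oxidation (4 against 6) and the urea cycle (1 against 2). GW4064, which covered 1.94% of all genes, had 1, 2 and 2 in these lists. In others it had more than T09, such as PXR and CAR targets (8 against 3). These lists, their limits and the counts below are descriptions with no test, and the lists were drawn up with earlier results of these data known.

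The list of gluconeogenesis and amino acids to glucose had 6 of 20 members covered and a median body coverage of 3.10% beside 0 over all genes. Sds (serine dehydratase) lay wholly inside 1 region (fold 1.5). Hpd (4-hydroxyphenylpyruvate dioxygenase) was covered at 97.0% and Got1 at 88.3%. Fbp1 (fructose bisphosphatase) was at 65.0%, and the amino acid transporters Slc38a4 and Slc38a2 at 51.2% and 37.0%. Gpt2 (alanine aminotransferase) had 21.7%, short of the limit. In the urea cycle 2 of 8 members were covered, Ass1 at 98.8% and Asl (argininosuccinate lyase), the next enzyme, at 43.2%, and the first enzyme Cps1 had 13%. In methionine metabolism 2 of 15 were covered, Mat1a at 85.1% and Ahcy at 55.0%, the enzymes that make the methyl donor S-adenosylmethionine and clear S-adenosylhomocysteine.

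Enzymes of tyrosine breakdown were listed after values had been seen, and their coverage supports nothing by itself. Among them Hpd was at 97.0%, Hgd at 72.1% and Fah at 36.4%, and these genes lie on chromosomes 5, 16 and 7. Elsewhere in amino acid breakdown, also listed afterwards, 3 of 38 enzymes were covered (Sds, Got1 and Aass at 60.3%). Among 16 amino acid transporters there were 4, with Slc7a2 (cationic amino acids) the highest at 56.8% and Slc38a3 the lowest at 32.2%.

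Fatty acid oxidation and ketogenesis had 6 of 36 members covered. Among them were the acyl-CoA synthetases Slc27a2 at 69.8% and Acsl1 at 51.6%, Cpt1a at 28.9% (entry of fatty acids into mitochondria) and Acadvl at 25.4%. Peroxisomal enzymes as a whole, a list added after seeing values, had 7 of 32 covered: beside Slc27a2 these included Scp2 at 65.7%, Hacl1 at 59.8%, Ephx2 at 46.3%, Phyh at 32.2% and Nudt7 at 29.1%. In fatty acid and triglyceride synthesis 4 of 32 were covered, namely Lpin1 at 55.9%, the desaturase Fads2 at 45.3%, Lpin2 at 42.9% and the lipid droplet coat gene Plin4 at 37.5%. The fatty acid synthase gene Fasn and the desaturase gene Scd1 were at 0%.

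Bile acid genes had 3 of 27 covered, with Scp2 first, then Slc27a5 (bile acid CoA ligase) at 39.2% and Abcc2 (a canalicular export pump) at 28.4%. Cyp7a1, the rate-limiting enzyme of bile acid synthesis, was at 0%. Cholesterol synthesis and LDL uptake had 0 of 26. Glycolysis, glycogen and fructose had 1 of 19, Ppp1r3g (a glycogen-targeting subunit) at 31.5%.

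Genes of secreted plasma proteins had 6 of 32 covered. Apoa1, Apoc3, Apoa5 and Serpina3k lay wholly inside gained regions, and Apoa4 and Hrg were at 67.6% and 60.4%. The region over Apoa1 and Apoc3 was 1 interval with a fold of 1.04 and that over Apoa5 had 1.05, so these calls rest on small folds. In complement 2 of 18 were covered, C3 at 88.5% and Masp2 at 53.8%. Clotting had 0 of 19 and acute phase genes 0 of 23, with 4 of the 23 reached. The acute phase genes had a median length of 4.61 kb, and 12.1% of all genes of 5670 bp or less were reached.

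Growth signalling had 3 of 26 covered: Egfr, Igfals at 66.0% (the carrier of circulating IGF1) and Igf1 at 43.6% in 53 regions. Along the growth hormone axis, a list added after values were seen, all 12 members were reached and 4 covered. Cish, a feedback inhibitor, was at 38.8% and the receptor Ghr at 10.5% in 72 regions. The 12 genes had a median length of 69.8 kb, and 75.3% of all genes of 44341 bp or more were reached. Among hepatocyte transcription factors Onecut1 was the 1 of 24 that was covered, at 74.2%, and Foxa3, Hnf4a and Foxo1 had 21.6%, 20.6% and 19.7%. Of 31 nuclear receptor genes, with a median length of 53.9 kb, 26 were reached and 1 covered, Rxrb at 60.1%. Its relative Rxra had 22.8% (19.8 kb). The clock list had 17 of 20 reached and 1 covered, the output factor Dbp, at 100%. Its genes had a median length of 29.5 kb, and 50.2% of all genes of 17170 to 44337 bp were reached. Cytokine and early response genes had 2 of 31, Gadd45g at 100% and Cish. Haem synthesis was represented by Alas1, its rate-limiting enzyme, at 88.4%, the 1 of 17 iron and haem genes covered. Retinoid and vitamin handling had 1 of 13, Adh1 at 39.7%.

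**Figure D4:**
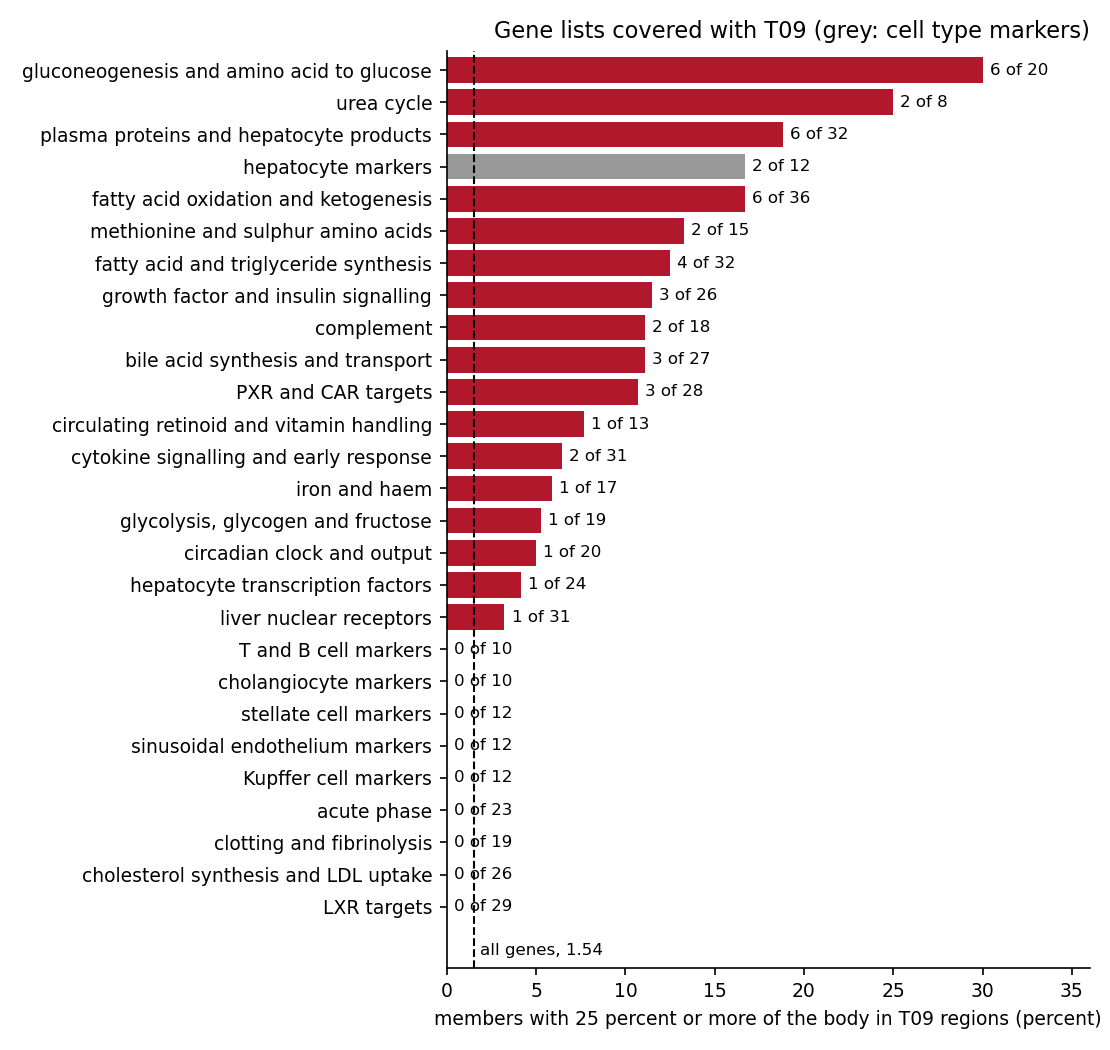
Percent of the members of each gene list with 25% or more of the body in T09 regions, with counts at the bars (dashed line, 1.54% of all protein-coding genes; grey, cell type markers). Gluconeogenesis and amino acid genes had 6 of 20 and the urea cycle 2 of 8, while LXR targets, cholesterol synthesis, clotting and acute phase genes and the markers of 5 other cell types had none.

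Counts of covered members by gene family stand beside 1.54% of all protein-coding genes. Of 3 lipins 2 were covered, of 11 Slc38 transporters 3, of 13 apolipoproteins 4 and of 19 carboxylesterases 3 (Ces2a at 74.3%, Ces3b at 59.2% and Ces1d at 55.6%). Of 15 Cyp2c genes the 1 covered was Cyp2c70 at 64.8%. The Cyp3a (9 genes), Cyp2d (8), Cyp4a (8), major urinary protein (22) and fibrinogen (3) families had 0 covered. In families of these sizes, 0 cannot be set apart from the share of all genes. Families of short genes expressed in all cells also appeared, with 11 of 80 ribosomal protein genes (Rpl38 at 85.9%), 7 of 112 clustered histone genes and 4 of 49 complex I genes. Of all 5472 genes of 5670 bp or less, 153 were covered. Sensory and epithelial families had few covered members: 3 of 1110 olfactory receptors, each at 32.4% or less, 0 of 355 vomeronasal receptors and 0 of 53 keratins. A region touched 4.05% of olfactory and 7.32% of vomeronasal receptor genes.

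Cell type markers were checked because whole liver was used. Of 12 hepatocyte markers 5 were reached (41.7%, beside 43.2% of all genes) and 4 had 10% or more. Covered were 2, Apoa1 and Ass1, beside 1.54% of all genes, and the region over Apoa1 had a fold of only 1.04. Of 12 Kupffer cell markers 0 were covered and 2 reached, the highest being Cd68 at 24.7% (0.483 kb). Markers of sinusoidal endothelium (12), stellate cells (12), cholangiocytes (10) and T and B cells (10) had 0 members with 10% or more, although 11 of the 12 endothelial genes, with a median length of 39.5 kb, were reached. In marker lists of 10 to 12 genes, 0 cannot be set apart from the share of all genes. A change in the share of a cell type and a change per cell cannot be told apart in whole liver.

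The known LXR targets were not among the covered genes. The sample labels name T09, while the series text calls it a GW agonist, and no value here tests which ligand the samples received, so each value holds for the list labelled T09. Of 29 targets, 17 (58.6%) were reached and 0 covered with T09, beside 43.2% and 1.54% of all genes. Of the 20 with a known start, 0 had it in a gained region, beside 3.01% of all genes with a window. In lists this short, 0 cannot be set apart from those shares. Abcg8, with its partner Abcg5 the exporter of sterols into bile, had the highest share at 15.4% (1 region, fold 1.17), and Abcg5 had 4.66%. The efflux transporter Abca1 was at 2.12% and Abcg1 at 2.13%, the phospholipid enzyme Lpcat3 at 7.90% and the LXR gene Nr1h3 itself at 0.623%. Srebf1, the master factor of fatty acid synthesis, was at 0%, as were Scd1, Fasn, Mylip, Thrsp, Apoe and Cyp7a1. With GW3965, 9 of the 29 were covered: Scd1 had 94.8%, Fasn 88.5%, Srebf1 76.9% and Cyp7a1 68.5%. For GW3965 the share of all genes covered was 2.26% (495 genes). PXR and CAR targets had 3 of 28 covered with T09, Alas1, Por (the electron donor of cytochromes P450) at 53.7% and Abcc2, but Cyp3a11, the best known PXR target, was at 0%, as were Cyp2b10 and Cyp2c29. With GW4064 Cyp3a11 was at 90.9%. The gene for PXR itself, Nr1i2, had 21.7% with T09 and its start site in a region.

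Most T09 regions did not overlap a GW3965 region, although both ligands act on LXR. The GW3965 list covered 20.2 Mb and the GW4064 list 20.8 Mb, and the overlap by position alone was not estimated. Doses are not given in the sources used here, each list came from its own samples and vehicle, and the values are set side by side with no test. Of the T09 regions, 4.50% overlapped a GW3965 region by 1 base or more (95% exact binomial interval 4.34 to 4.67, counting error only) and 4.41% of the GW3965 regions overlapped a T09 region. The overlap was 0.849% for T09 regions of 20 bp or less, 29.1% for those of 1 kb or more and 39.7% above 5 kb. For GW4064, an agonist of another receptor, the shares were 4.71%, 1.34%, 21.6% and 35.1% in the same order. A wider interval has more room for an overlap. By bases, 11.8% of the T09 sequence lay in GW3965 regions and 9.40% in GW4064 regions. For T09 regions of 1 kb or more these base shares were 22.4% and 15.4%.

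Of the 337 genes covered with T09, 77 (22.8%) were covered with GW3965, which was 15.6% of the GW3965 set, and 56 (16.6%) with GW4064, which covered 424 genes (1.94%). At 0% in both other lists were 143 of the 337 (42.4%), a share near the 42.5% of all genes, where 16.8% of the genes reached with T09 were at 0% in both. Egfr, Got1, C3, Mat1a, Hpd and Fbp1 were among them. Ass1 had 0% with GW3965 and 25.6% with GW4064, and Lpin1 0% and 4.78%. Acsl1 (85.5%), Slc27a2 (80.5%) and Cyp2c70 (73.6%) were covered with GW3965 as well and had 1.33%, 0% and 0.442% with GW4064. All 3 lists covered 22 genes, among them Alas1 (88.4%, 75.4% and 74.1% with T09, GW3965 and GW4064), Fmo5 (54.0%, 46.6% and 61.7%), Sqstm1 (an autophagy receptor; 31.7%, 64.5% and 66.8%), Osgin1 (49.1%, 88.1% and 96.9%) and Fabp1 (the liver fatty acid binding protein; 32.2%, 88.8% and 30.3%).

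**Figure D5:**
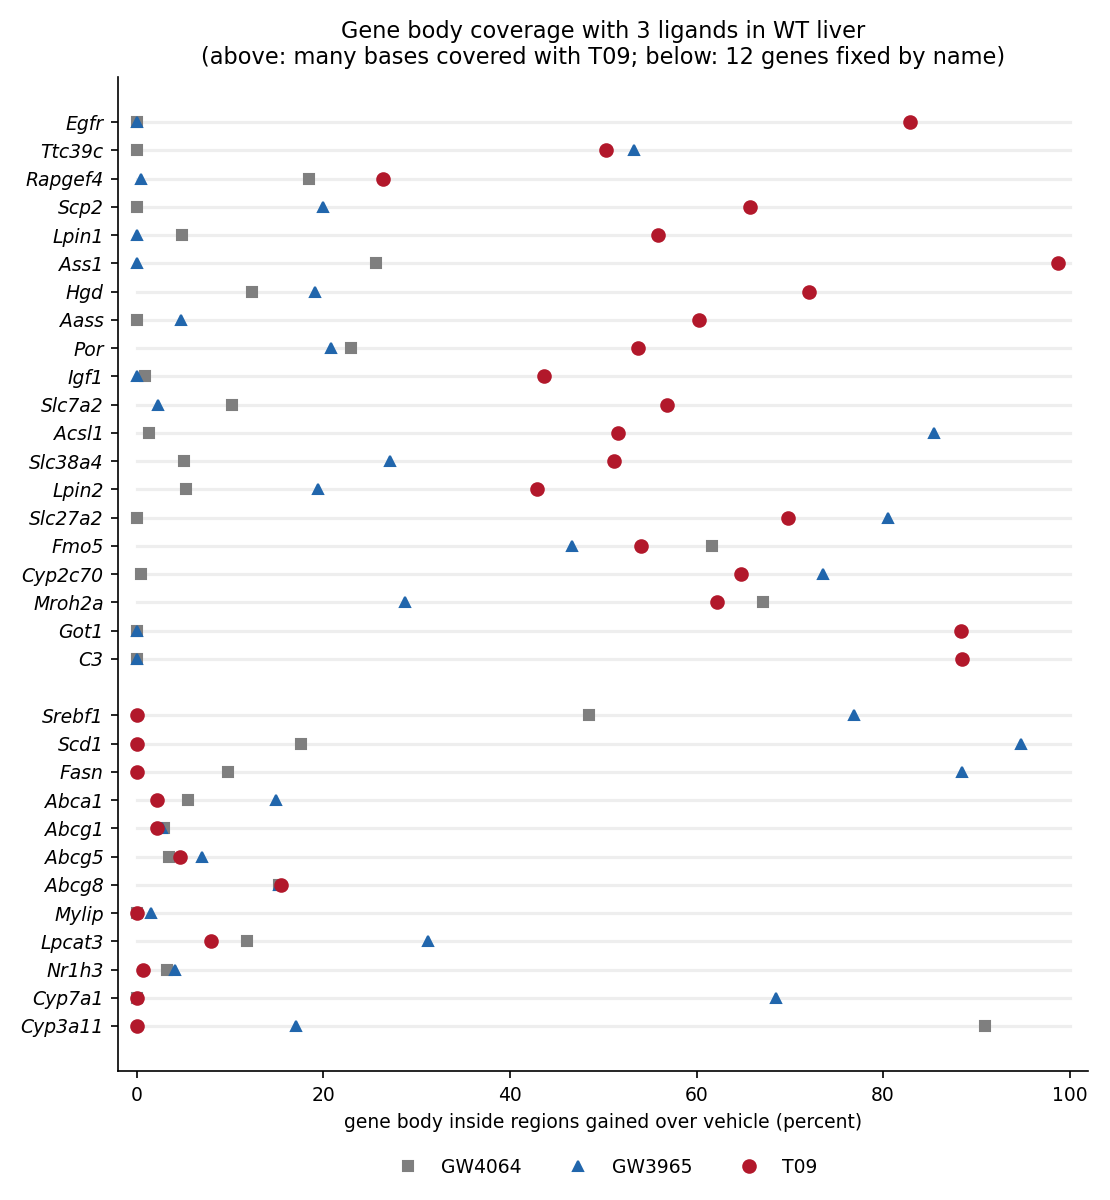
Percent of the gene body inside regions gained with T09 (circles), GW3965 (triangles) and GW4064 (squares) over their own vehicles, for 20 covered genes with many T09 bases and for 12 genes fixed by name. Egfr, Got1 and C3 were covered with T09 alone, whereas Srebf1, Scd1, Fasn and Cyp7a1 were at 0% with T09 and at 68.5% or more with GW3965.

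Foxa2, the forkhead factor that opens liver chromatin, had peaks in part of the wide regions. Foxa2 peaks of the T09 library (25318) overlapped 1.49% of all T09 regions, 18.2% of those of 1 kb or more and 39.7% of those above 5 kb. A wider interval has more room for a peak. Of the bases of these regions, 2.14%, 3.92% and 4.3% lay in Foxa2 peaks, in the same order. In the other direction, 3.89% of the Foxa2 peaks lay in a gained region, and of the 4348 peaks of the vehicle library 4.62% did. The gained regions held 14.7 Mb in all, and the share by position alone was not estimated. Of the 99 genes with 10 kb or more covered, 88 held a Foxa2 peak with T09, where 38.9% of all 13962 genes of at least 10 kb did; the 99 genes were also longer, with a median of 77.5 kb against 33.1 kb, and the part of length in this was not tested. The 99 genes held 519 Foxa2 peaks, of which 131 lay in a T09 region. All peaks of the gene did in 15 genes, and 0 did in 27 others that held a peak. Igf1 had 7 of its 8 inside T09 regions, Egfr 4 of 4 and Lpin1 4 of 5, whereas Upp2 had 2 of 8, Rapgef4 1 of 7, Dpyd 1 of 13, Slc7a2 0 of 6 and Mtss1 0 of 9, and Ass1 held no peak.

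LXR peaks lay in fewer T09 regions than Foxa2 peaks did, and the LXR list was the shorter one. By bases the order was the reverse. Of the LXR peak sequence (T09 library) 9.53% lay in T09 regions, and of the Foxa2 peak sequence 3.62%. For the vehicle libraries these shares were 11.9% and 4.96%. The 8095 LXR peaks with T09 overlapped 0.232% of all T09 regions and 1.86% of those of 1 kb or more. Of the bases of these T09 regions, 0.438% and 0.969% lay in LXR peaks. In the other direction, 1.88% of the LXR peaks lay in a gained region. With vehicle, 2.14% of 4803 LXR peaks did. As for Foxa2, the share by position alone was not estimated. Of the 99 genes, 19 held an LXR peak with T09, beside 14.3% of all genes of at least 10 kb. Of the 58 LXR peaks in wide regions, 16 lay on chromosome 1 at Mroh2a and Hjurp and on towards Trpm8, a place covered with all 3 ligands (Mroh2a 62.2%, 28.7% and 67.1%). Peaks elsewhere included Egfr (chr11:16878077-16878201, inside a region with a fold of 4.22), Ren1, Asl and Mfsd2a. Srebf1 and Fasn each held 1 LXR peak with T09 and 1 with vehicle, in no gained T09 region.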

How the data were processed

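ATAC-seq of WT liver was used as the authors' list of regions gained with T09 over vehicle, called by PeakSeq per the series text. The submitters' processing notes name BWA and mm10, with versions not given. For each region the authors deposited a ratio (fold over vehicle), a -log10 of p and a q-value. Per the labels' protocols, libraries were size-selected on a gel near a nucleosome's length, and the text there describes adapter ligation and names no transposase. Positions were converted to 1-based. A gene counted as reached with 1 base or more of its body in a region and as covered with 25% or more, over 21887 protein-coding genes of RefSeq GRCm38.p6, the mm10 assembly; exons and introns were not told apart. Promoter windows came from RefSeq (17492 of these genes matched). Tf and C5 were matched as Trf and Hc.

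Named genes were those overlapped by the first 10, the 10 widest and the 10 highest-fold regions of 1 kb or more, up to 3 members of each list with the highest coverage, and 12 genes by name; others were chosen after their values were seen. Members and lists were chosen with earlier results of these data known, and 7 lists, the 10 kb limit and the stretches were added after values were seen. Lists printed only as counts include autophagy (3 of 18 covered: Gabarapl1, Map1lc3b and Sqstm1) and peroxins (3 of 16: Pex16, Pex11g and Pex26). Some genes are not reported here. Coverage code was tested on simulated intervals. Tools were pandas 2.3.3 and numpy 2.4.6 under Python 3.11.15, with binomial intervals from scipy 1.17.1 and plots by matplotlib 3.10.9.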

Additional observations from a re-analysis of the deposited data

How the results depend on the processing

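Counts followed the thresholds closely. With a q of 0.01 or less, 11067 regions remained of 60868 and the median width was 214 bp in place of 113 bp. Genes reached were then 17.4% in place of 43.2%, covered genes 188 in place of 337 and genes with 10 kb or more covered 59 in place of 99. With regions of 200 bp or more, 16327 regions stayed, 21.6% of genes were reached, and 4.74% of regions held a Foxa2 peak and 0.637% an LXR peak of T09. Within 10 kb of a gene, 61.5% of genes were reached. Coverage limits of 10% and 50% gave 860 and 149 covered genes. Requiring 50% of the T09 region gave an overlap of 3.08% with GW3965 and 3.45% with GW4064, and a q of 0.01 or less in both lists gave 4.01% with GW3965. Leaving out genes under 2 kb gave 301 covered genes, within 1.5 times of the main count. All 188 genes covered at the stricter q were among the 337. Of 34 gene lists, the count covered stayed within 1.5 times of the main count in 19 at a limit of 10%, in 22 at 50% and in 23 with 10 kb or more covered in place of 25%. The stricter settings keep fewer regions or genes by construction. No paired analysis was possible because the list carries no replicate values, and for the same reason leaving out a replicate was not run. Depth is unknown, so it cannot be said which genes were too thinly read to be called.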
